A study of Salmo salar with 72 samples.

Results

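Primary hepatocytes of Atlantic salmon (Salmo salar) exposed for 48 h to 100 µM arsenite (AsIII_100uM in the sample titles) were compared with control hepatocytes (Control_AsIII) by RNA-seq. The comparison took in 12 of the 72 libraries of the series, 6 per group, chosen by their titles. Cells of the same 6 male fish (447 to 572 g) gave 1 library to each group, so the libraries were paired by fish number. In both groups the cells had been grown at 10 °C on laminin-coated porous scaffolds in medium with serum for 36 to 40 h before exposure. Dose and compound are those of the titles. Another label text lists arsenite doses that stop at 30 µM, and a further one names an arsenosugar, so the nominal dose rests on the titles alone. What the control wells received, and the viability of the cells at the end of the exposure, are not given in the labels. All 25830 genes of the processed table entered, and 24741 passed the filter on low values.

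Arsenite is a trivalent inorganic form of arsenic that binds pairs of neighbouring thiols in proteins. Misfolded protein then frees heat shock factor to switch on chaperone genes, thiol loss frees NRF2 to switch on redox genes, and phosphorylation of eIF2α lowers protein synthesis while favouring ATF4 and its targets. Hepatocytes take arsenite up through aquaglyceroporins, methylate it with the enzyme encoded by as3mt, and are the main source of plasma proteins and, in egg-laying fish, of yolk precursors.

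Levels below are normalized counts, that is the reads of a gene after division by its library's size factor, and each group holds 6 libraries. Changes are log2 fold changes of 100 µM minus control ± SE on the log2(value + 1) scale, from limma with the fish as a block, and a gene is said to have risen or fallen where its adjusted p was below 0.05. Library depth was 32.2 to 47.2 M reads. Of the 25830 genes, 143 to 342 were listed at 0 in the control libraries and 193 to 298 in 5 of the 6 exposed libraries. The 100 µM library of fish 1 had 1694 and stood apart. In it, 294 genes were listed at 0 that had 10 or more normalized counts in each of the other 11 libraries, against at most 7 such genes in any of those. The number of genes at 0 did not differ between the groups by an exact sign-flip permutation test (470.3 ± 600.8 at 100 µM against 243.8 ± 76.7, SD, n = 6 pairs, 2-sided p = 0.844). The hepatocyte marker serum albumin (alb1) stood at 426938 or more in every library, and genes named hemoglobin subunit made up at most 0.00123% of the values of any of the 12. Many salmon genes have near-identical copies, and reads could be split between them, so values of single copies are uncertain. In bulk RNA of this kind, fewer cells of a type and less RNA per cell cannot be told apart.

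At 100 µM, 6351 genes rose and 4996 fell of 24741 tested (limma, 45.9% called, 25.7% higher and 20.2% lower). Rises of 2-fold or more numbered 2499 and falls of that size 998. The level ranges of the groups did not overlap for 4963 genes (20.1%). Leaving out fish 1 gave 6596 rises and 5030 falls, and 10512 of these genes were also called with all 6 fish, each in the same direction. The median change of all genes tested was 0.03, or -0.05 where every library was scaled to the same total. That scaling gave 5388 rises and 6018 falls, so which direction was the more frequent depended on the scaling.

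**Figure D1:**
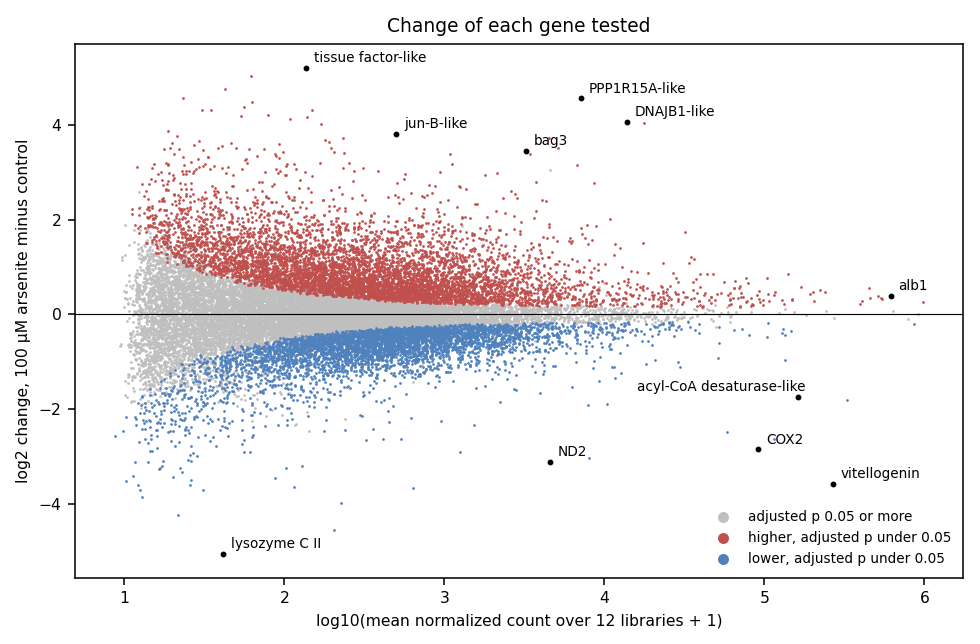
Log2 change of each of the 24741 genes tested (y axis) against the log10 of its mean normalized count over the 12 libraries plus 1 (x axis), with genes called higher in red, called lower in blue and not called in grey. Of the labelled genes, the tissue factor-like gene (5.21) stands highest and the lysozyme C II gene (-5.05) lowest, while vitellogenin, COX2 and the acyl-CoA desaturase-like gene fell at high levels.

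Genes were ranked where the mean was 100 or more in at least 1 group and the direction the same in 6 of 6 fish. Genes whose product is named uncharacterized were left out of this ranking. Within it, the greatest rise was that of LOC106568893, a tissue factor-like gene for the starter of blood coagulation. Its level was 0 to 24 (median 9.9) in the controls and 139.1 to 356 (median 280.3) at 100 µM. Every exposed library lay above every control library, and the change was 5.21 ± 0.61 (adjusted p = 7.87e-05). Next came the PPP1R15A-like gene LOC106561078 (4.57 ± 0.32), whose product recruits the phosphatase that reverses eIF2α phosphorylation. It was followed by a HES-1-like transcription factor gene, LOC106613513 (4.49 ± 0.49), and a sodium/calcium exchanger-like gene, LOC106591009 (4.39 ± 0.56). The remaining rises among the 12 greatest ran from 3.82 to 4.32. They were an HSP70-like gene (LOC106572869), an HSP30-like gene (LOC106563459), both DNAJB1-like co-chaperone genes (LOC106564265 and LOC106591679), a jun-B-like gene (LOC106607038), a netrin receptor-like gene (LOC106593900), a DBL-like proto-oncogene (LOC106611731) and a gene named flocculation protein FLO11-like (LOC106609127). Control medians were below 10 for LOC106613513 (4.27), LOC106591009 (2.04), LOC106609127 (5.73) and LOC106568893. These genes met the filter on low values through the 100 µM libraries, so the direction of their change was set in part by it.

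The greatest fall by the same rule was that of a calphotin-like gene, LOC106580076, from 164.1 to 515 (median 458) in the controls to 5.56 to 58.9 (median 10.2) at 100 µM. The groups did not overlap, and the change was -4.55 ± 0.33 (adjusted p = 2.01e-07). Vitellogenin (LOC100136426, -3.58) and the mitochondrially encoded ND2 (-3.12), ND1 (-3.04), ND3 (-2.90) and COX2 (-2.85) were also among the 12. A copy of the aldolase B gene (LOC106604855) changed by -3.25 ± 0.41, and a sialyltransferase-like gene (LOC106570212) by -3.20 ± 0.32. For the other 4, the 100 µM library of fish 1 was listed at 0 and set part of the value. The acyl-CoA ligase 1-like gene LOC106612015 changed by -3.98 with all fish and by -3.09 without fish 1. The pseudokinase gene fam20a changed by -3.67 and -2.81, the glutamate transporter-like gene LOC106608636 by -3.64 and -2.85, and bat1 by -3.46 and -2.77. All 4 had fallen in both fits.

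**Figure D2:**
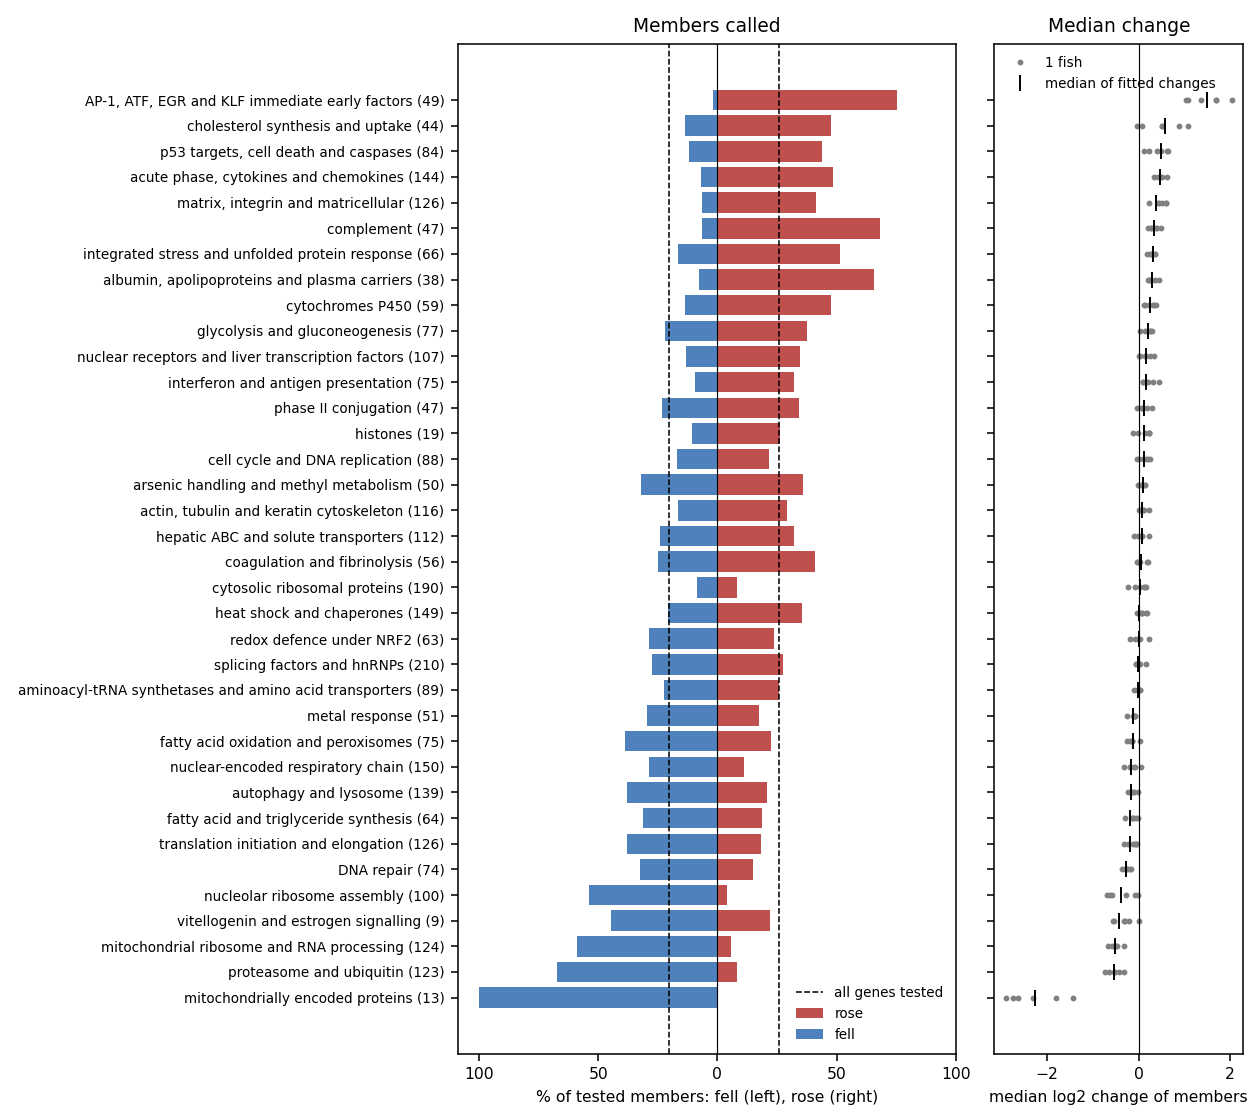
Left, the percentage of the tested members of each gene list that rose (red, to the right) or fell (blue, to the left) at 100 µM, with the number tested in brackets and dashed lines at the percentages over all genes tested (25.7% higher, 20.2% lower). The 5 lists of other cell types are left out. Right, the median log2 change of the members, with 1 grey point per fish; immediate early factors stand at the top and the 13 mitochondrially encoded genes at the bottom.

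Immediate early transcription factors are switched on within minutes by signals and stress, and their mRNA is short-lived. Of 49 tested (54 in the table), 37 rose and 1 fell, with a median of 1.49 against 0.03 for all genes. Called genes made up 77.6%, against 45.9% over all genes. All 9 EGR genes rose (2.03 to 3.77), as did 8 of 9 FOS family genes, 4 of the 5 JUN genes that the list holds and 4 of 4 KLF10 and KLF11 genes. The EGR genes LOC106592202 (3.77), LOC100194495 (3.61) and LOC106585589 (3.49) were below 10 in every control library. They passed the filter on low values through the 100 µM libraries alone, so the direction they add to these counts was set by it. The zinc finger gene egr1 stood at 10.6 to 72.9 (median 32.9) in the controls and 174.3 to 552 (median 376) at 100 µM. The exposed libraries all lay above the controls, with a change of 3.43 ± 0.27 (adjusted p = 1.74e-07). The ATF-3-like gene LOC106607825, a repressor induced by many stresses, stood at 391 to 794 (median 592) and 5002 to 8425 (median 6112), again without overlap, with a change of 3.39 ± 0.14 (adjusted p = 6.6e-09). Its named copy atf3 changed less (1.46 ± 0.11). The fall was that of 1 of the 4 KLF6 copies (LOC106599490, -0.94 ± 0.13), none of which rose.

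**Figure D3:**
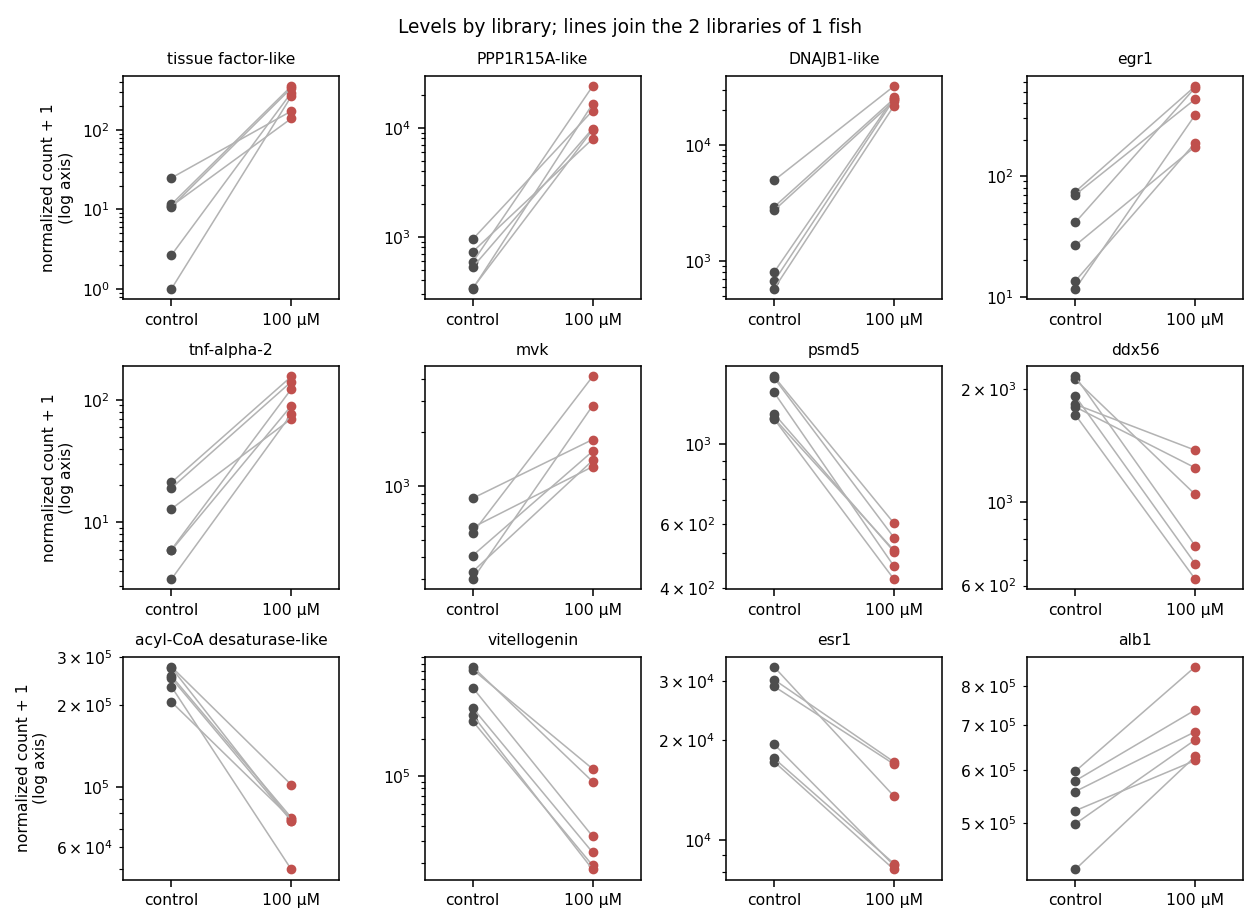
Normalized counts plus 1 on log10 axes of 12 genes in the control and 100 µM libraries, with a line joining the libraries of each of the 6 fish. The lines of all 6 fish run upwards for the stress, early response and cytokine genes, mvk and alb1, and downwards for psmd5, ddx56, the acyl-CoA desaturase-like gene, vitellogenin and esr1; control levels of the DNAJB1-like gene form a higher set (fish 1, 2 and 5) and a lower set (fish 3, 4 and 6).

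Heat shock proteins hold unfolded proteins and help them refold, with DnaJ proteins delivering clients to HSP70. Of 149 tested chaperone genes, 53 rose and 31 fell, or 46 and 41 under library-size scaling. Their median of 0.02 was close to that of all genes and turned to -0.07 under that scaling. The rises of single members were the larger. Small heat shock genes were high as a family, with 9 of 13 risen and a median of 2.66. HSP70 genes had 12 rises and 8 falls among 24, DnaJ genes 20 and 15 among 79, and HSP90 genes 4 and 3 among 11. Over all genes 25.7% rose and 20.2% fell, and the DnaJ counts were close to these shares. None of the 8 heat shock factor genes passed the test.

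The DNAJB1-like gene LOC106564265 stood at 4943, 2917 and 2726 in the control libraries of fish 1, 2 and 5 and at 666, 797 and 574 in those of fish 3, 4 and 6. At 100 µM it was 21730.2 to 32091 (median 24836). The exposed libraries were therefore close together while the controls fell into a higher and a lower set, and the groups did not overlap (4.06 ± 0.48, adjusted p = 0.00132). The HSP70-like gene LOC106572869 went from 0 to 102.6 (median 16.4) to 197 to 359 (median 267) (4.32 ± 0.93, adjusted p = 0.0101), and bag3, an HSP70 partner that steers damaged protein to autophagy, from 311 to 1041 (median 569.9) to 4584 to 7388 (median 5707) (3.46 ± 0.19, adjusted p = 1.04e-06). Neither gene overlapped between the groups. A bag3-like copy, LOC106604528, changed by 3.12 ± 0.52. The falls included the mitochondrial DNAJA3 gene LOC106592966 (-1.01 ± 0.23) and the DNAJC25-like gene LOC106572757 (-0.93 ± 0.14).

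The integrated stress response couples eIF2α phosphorylation to ATF4, and the unfolded protein response raises chaperones of the endoplasmic reticulum. In the list of both, 34 of 66 tested genes rose and 11 fell (median 0.31), the falls numbering 7 without fish 6. Called genes made up 68.2%, against 45.9% over all genes. The PPP1R15A-like gene LOC106561078 stood at 332 to 949.7 (median 555) in the controls and 7915 to 24079 (median 12101) at 100 µM. All exposed libraries were far above all controls (adjusted p = 9.79e-05), while its other copy LOC106584628 changed by 1.98 ± 0.20. Of 17 chaperone genes of the endoplasmic reticulum, 16 rose, with changes of 0.22 to 1.42. The greatest were those of a BiP (78 kDa glucose-regulated protein) gene, LOC106603660 (1.42 ± 0.11), and a calreticulin-like gene, LOC106584323 (1.26 ± 0.12). The ATF4 genes changed little (2 of 4 rose, -0.21 to 0.44). The single DDIT3 (CHOP) gene, which promotes death under lasting stress, did not pass the test (-0.08). The nuclear protein 1-like gene LOC106583939 fell from 30943 to 44051 (median 37913) to 14634 to 25325 (median 18758) (adjusted p = 4.33e-08).

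Redox defence genes grouped under NRF2, not all of them its targets, had 15 rises and 18 falls among 63 (median 0.01). Their called share was 52.4%, against 45.9% over all genes. Library-size scaling gave 11 and 23, with a median of -0.07. Leaving out fish 1 gave 11 and 16. The cystine/glutamate transporter-like gene LOC106604686, which brings in cystine for glutathione, stood at 105.5 to 202 (median 125.5) in the controls and 211 to 590.5 (median 405) at 100 µM, without overlap (1.44 ± 0.16, adjusted p = 3.71e-06). All 3 transaldolase genes of the pentose phosphate pathway fell (taldo -1.15 ± 0.10, LOC106587773 -1.17 ± 0.10, LOC106587651 -0.85 ± 0.09). Genes annotated as heme oxygenases went different ways. A heme oxygenase-like gene, LOC106590330, rose by 0.53 ± 0.13, another, LOC106590030, did not pass the test (0.17 ± 0.13), and the heme oxygenase 2-like genes LOC106601881 (-0.75) and LOC106601841 (-0.45) fell. A further such gene, LOC106606500, changed by -0.28 and did not pass when fish 1, 3, 4 or 5 was left out (-0.28 to -0.22). Of the NQO1 genes, 1 of 3 fell and none rose. The autophagy receptor gene annotated Sequestosome-1 (sqstm) rose by 0.35 ± 0.08, while a gene that carries the symbol sqstm1 in the file but has no product name stood at 38775 to 65492 (median 56380.2) and 29307 to 57935 (median 48977) and did not pass the test (-0.26 ± 0.14). It did without fish 5 (-0.38) and with DESeq2 on the recovered reads (-0.31, adjusted p = 0.0217).

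Metal response genes were split, with 9 rises and 15 falls among 51 (median -0.12, 47.1% called against 45.9% over all genes). Metallothioneins, the cysteine-rich metal buffers, moved little. Metallothionein A (LOC100136589) stood at 213 to 924 (median 526) in the controls and 350.4 to 1186 (median 674) at 100 µM, overlapping, and rose by 0.49 ± 0.10 (adjusted p = 0.00138). Metallothionein B (LOC100136581) did not pass the test (-0.12 ± 0.09). Falls were led by the zinc exporter-like gene LOC106607574 (-1.12 ± 0.17), the copper-transporting ATPase 2-like gene LOC106574875 (-1.05 ± 0.13) and znt4 (-1.04 ± 0.13), and rises by the zinc importer-like genes LOC106570429 (2.27 ± 0.41) and LOC106561904 (0.89 ± 0.15).

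In arsenic handling and methyl metabolism, 18 of 50 tested genes rose and 16 fell. Annotated arsenite methyltransferase genes went different ways. The copy LOC106568062 stood at 19.5 to 54.1 (median 46.6) in the controls and 109.2 to 272 (median 139.5) at 100 µM, without overlap (2.07 ± 0.22, adjusted p = 3.36e-06). The copies LOC106581028 (-0.38 ± 0.09) and LOC106588782 (-0.29 ± 0.08) fell by small amounts. The copy as3mt did not pass the test (-0.07 ± 0.16), and its sign turned to 0.05 without fish 1. The arsenite channel gene aqp9 rose from 96.9 to 193 (median 133.7) to 272 to 511 (median 333) (1.45 ± 0.14, adjusted p = 1.04e-06), whereas the aquaporin-9-like gene LOC106595412 fell from 2812 to 3887 (median 3058) to 1762 to 2554 (median 2257) (-0.54 ± 0.08, adjusted p = 4.94e-05). Neither overlapped between the groups, as was so for 20.1% of all genes tested, and the changes of both copies had opposite directions. The aquaporin-3-like gene LOC106588140 also rose (1.99 ± 0.33). Among methyl donors, dmgdh (-1.15 ± 0.10) and the betaine-homocysteine methyltransferase-like gene LOC106568115 (-1.12 ± 0.17) fell.

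The proteasome, which degrades ubiquitin-tagged protein, had lower mRNA for most of its parts. Of 123 tested genes of the proteasome and ubiquitin system, 83 fell and 10 rose, with a median of -0.53 and medians of -0.73 to -0.31 in single fish. Called genes made up 75.6%, against 45.9% over all genes. Falls took in 19 of 23 genes of the alpha ring and 15 of 23 of the catalytic beta ring of the 20S core, and 30 of 38 of the 19S cap. The proteasome activators differed, with 4 rises and 2 falls among 11. The 19S assembly chaperone gene psmd5 stood at 1178 to 1544 (median 1306) in the controls and 422 to 603 (median 505) at 100 µM. No library of one group reached the other, and the change was -1.40 ± 0.09 (adjusted p = 3.1e-08). The beta-6-like gene LOC106603098 changed by -1.29 ± 0.14. A ubiquitin-like modifier-activating enzyme 1 gene, LOC106566065, rose (1.79 ± 0.16).

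Lysosome and autophagy genes fell more often than they rose (53 and 29 of 139, median -0.17). Subunits of the proton pump that acidifies the lysosome made up 24 of these falls, among 38 tested, and cathepsin proteases 15, among 24. The 29 rises included the V-ATPase subunit gene atp6v0a1 (1.75 ± 0.16) and a legumain-like protease gene, LOC106589466 (2.52 ± 0.37). The control libraries of LOC106589466 other than fish 2 had a median of 6.72. It met the filter on low values in part through the 100 µM libraries, so its direction was set in part by that filter. The cathepsin E-like gene LOC106576650 stood at 272 to 5518 (median 2139) in the controls and 94.6 to 1412 (median 319.8) at 100 µM. Levels differed so widely between fish that the groups overlapped, yet each fish was lower when exposed (-2.34 ± 0.15, adjusted p = 1.01e-07).

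Mitochondrial DNA encodes 13 subunits of the respiratory chain, which are transcribed from common promoters into long precursors. Their mRNA made up 2.76% ± 0.306 of the values of the control libraries and 0.652% ± 0.224 at 100 µM (SD, n = 6). The share was lower in 6 of 6 fish by 2.11 percentage points on average (exact sign-flip permutation test, 2-sided p = 0.0312, the smallest that 6 pairs allow). All 13 genes fell, with a median of -2.26. The complex IV gene COX2 stood at 138723 to 171628 (median 166134) in the controls and 16293 to 30797 (median 22008) at 100 µM, a change of -2.85 ± 0.09 (adjusted p = 6.59e-10). The complex III gene CYTB changed by -2.63 ± 0.14, COX3 by -2.49 ± 0.16 and COX1 by -1.81 ± 0.11. None of these genes overlapped between the groups. Complex I genes fell by 1.84 (ND6) to 3.12 (ND2) on the log2 scale. The falls of the ATP synthase genes were smaller. ATP6 stood at 24426 to 35559 (median 31139) in the controls and 18759 to 35441 (median 22721) at 100 µM, overlapping and higher in fish 2 when exposed (-0.33 ± 0.09, adjusted p = 0.00795). ATP8 changed by -1.07 ± 0.25, or -0.75 without fish 1.

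**Figure D4:**
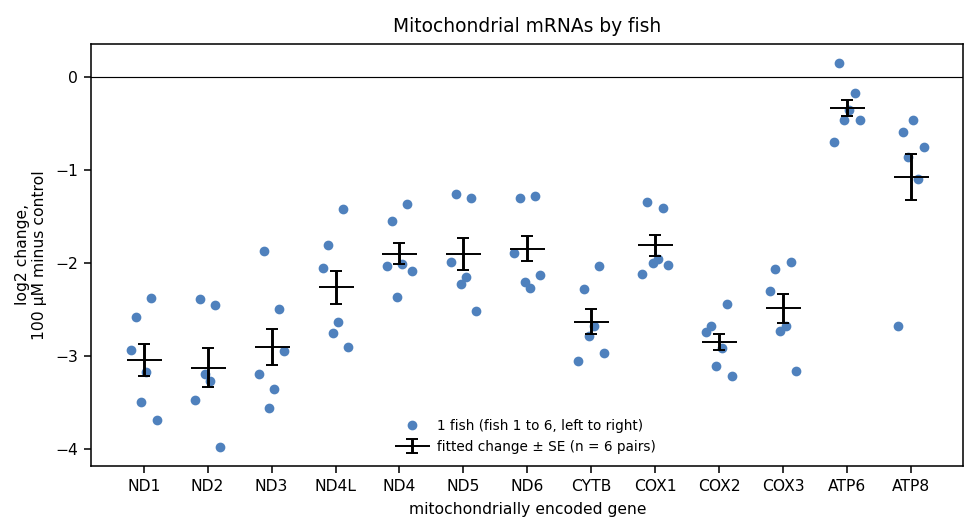
Log2 change of each of the 13 mitochondrially encoded genes in each of the 6 fish (points, fish 1 to 6 from left to right), with the fitted change and its SE (bars). The genes of complexes I, III and IV lie between -3.12 and -1.81 on average, ATP8 at -1.07 and ATP6 at -0.33.

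Nuclear genes of the respiratory chain moved less. Of 150 tested, 43 fell and 17 rose (median -0.16). The falls numbered 29 without fish 3 and 30 without fish 6, but 44 without fish 4. Library-size scaling gave 68 falls and 14 rises, which moved the called share from 40.0% (45.9% over all genes) to 54.7% (46.1%). Complex I held 18 falls and 2 rises among 53 genes, and complex IV 8 and 8 among 36. Mitochondrial ribosome and RNA processing genes, which are nuclear, fell far more often, with 73 falls and 7 rises among 124 (median -0.51). Called genes made up 64.5% of them. Falls took in 27 of 41 genes of the small subunit and 29 of 58 of the large subunit. The S18a-like gene LOC106607900 (-1.28 ± 0.16) and the S12-like gene LOC106603189 (-1.26 ± 0.16) did not overlap between the groups, and mrpl3 rose (0.91 ± 0.10).

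Genes of ribosome assembly in the nucleolus also fell, 54 of 100 tested against 4 that rose (median -0.38). Their median by fish was -0.57, -0.69 and -0.63 in fish 3, 4 and 6 and -0.09, -0.27 and -0.02 in fish 1, 2 and 5. The RNA helicase gene ddx56 stood at 1710.2 to 2164 (median 1871) in the controls and 623 to 1376 (median 906) at 100 µM. The groups did not overlap (-1.07 ± 0.15, adjusted p = 0.000122), and nol6 (-0.93 ± 0.12) and the pseudouridine synthase gene dkc1 (-1.08 ± 0.20) fell too. Few cytosolic ribosomal protein genes changed. Of 190 tested, 16 rose and 16 fell (median 0.03), and library-size scaling gave 4 rises, 46 falls and a median of -0.06. These counts rested on single fish, with 6 rises without fish 2, 7 without fish 1, 10 without fish 4 and 30 without fish 3, and 7 falls without fish 3 and 10 without fish 6.

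Translation factors fell more often than they rose (48 and 23 of 126, median -0.18, 56.3% called against 45.9% over all genes). The cap-binding eif4e2 fell from 196 to 258 (median 228) to 21.5 to 154.2 (median 73.7), without overlap (-1.84 ± 0.27, adjusted p = 8.9e-05). An eIF5A-1 gene, LOC106577556, rose (1.61 ± 0.09), as did both 4E-BP genes past the test, LOC100194634 (1.20 ± 0.12) and LOC100194635 (1.19 ± 0.28), whose products hold back cap-dependent initiation. Of 30 aminoacyl-tRNA synthetase genes 6 rose and 10 fell, and of 55 amino acid transporter genes 15 rose and 9 fell, which together is close to the share over all genes. The whole list of 89, with further members, had 23 rises and 20 falls, and library-size scaling gave 20 and 26. Greatest among the transporters after LOC106608636 were both b(0,+)-type transporter 1-like genes, LOC106592435 (-3.51 ± 0.66) and LOC106596152 (-2.90 ± 0.34), and the neutral amino acid transporter gene LOC106604056 (-2.46 ± 0.22), all lower. Splicing factors were even, with 58 rises and 58 falls among 210, or 53 and 71 under library-size scaling. Their called share was 55.2%, against 45.9% over all genes. The splicing kinase CLK2-like gene LOC106570085 rose (1.76 ± 0.13) and the PRP19-like gene LOC106602585 fell (-1.55 ± 0.17).

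Acute phase and cytokine genes rose in 70 of 144 cases and fell in 10 (median 0.46, 55.6% called against 45.9% over all genes). Tumor necrosis factor alpha-2 (tnf-alpha-2), an inflammatory cytokine, stood at 2.44 to 20.1 (median 8.43) in the controls and 69 to 153.9 (median 104.9) at 100 µM. Every exposed library exceeded every control (3.49 ± 0.37, adjusted p = 2.49e-06). With a control median below 10, tnf-alpha-2 met the filter on low values through the 100 µM libraries, so its direction was set in part by that filter. The interleukin-17 receptor D-like gene LOC106582696 (3.33 ± 0.62) and the chemokine CCL19-like gene LOC106563358 (2.76 ± 0.67) followed. Genes of NF-κB and its inhibitors held 10 rises and 1 fall among 18, the SOCS feedback inhibitors 10 and 1 among 19, and TNF receptor genes 10 and 0 among 30. Over all genes 25.7% rose and 20.2% fell, and the TNF receptor genes were called less often than all genes (45.9%). Of 6 haptoglobin genes, which bind free hemoglobin, 4 rose. The greatest fall was that of lysozyme C II (LOC100136365), an antibacterial enzyme of leukocytes, from 40.2 to 113.5 (median 87.8) to 0 to 4.71 (median 1.73) (-5.05 ± 0.59, adjusted p = 6.5e-06). Being below 10 in every 100 µM library, it passed the filter on low values through the controls alone, so its direction was set by that filter. The chemokine receptor gene cxcr4 fell as well (-2.38 ± 0.66, and -1.91 without fish 1). Interferon and antigen presentation genes had 24 rises and 7 falls among 75, a called share below that of all genes, and 4 falls without fish 2.

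Markers of other cell types that a hepatocyte preparation can hold were read beside these lists. The 9 leukocyte marker genes summed to 723 to 1217 in the controls and 431 to 896 at 100 µM, overlapping, with 1 rise and 4 falls. Erythroid genes summed to 98.8 to 508 in the controls and 0 to 122 at 100 µM, and the 5 genes of that list that passed the filter, of 9 in the table, all fell (median -2.55). In the comparison of 100 with 30 µM, which holds no control library, 1 erythroid gene passed the same filter. Most of the 5 therefore passed only with the control libraries, and their fall was set in part by the filter. The hemoglobin share of the 100 µM library of fish 1 was 0. Endothelial genes summed to 346 to 618 and 593 to 705, with 2 rises among 6, biliary genes to 214 to 443 and 185 to 409.8, with 2 rises and 2 falls among 7, and stellate or fibroblast genes to 1014 to 1297 and 838 to 1114, with 2 rises and 1 fall among 7. The counts of rises and of falls in the last 3 lists moved by at most 2 genes when single fish were left out. The greatest move was in the endothelial list, with 3 rises and 2 falls among 8 without fish 1. Counts this small thus depend in part on single fish. No marker gene of these lists was at 0 in all 6 libraries of a group. The part of other cells in the results on cytokine, matrix and lysosome genes was not tested.

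Plasma protein genes, the main secretory output of hepatocytes, mostly rose by small amounts. Albumin, apolipoprotein and carrier genes had 25 rises and 3 falls, or 5 without fish 4, among 38 (median 0.30). Their called share was 73.7%, against 45.9% over all genes. The albumin gene alb1 stood at 426938 to 597646 (median 539935) in the controls and 620354 to 855308 (median 675186) at 100 µM. The groups lay close but did not overlap (0.40 ± 0.05, adjusted p = 7.53e-06), and its copies LOC100136922 (0.47 ± 0.05) and LOC106570911 (0.46 ± 0.07) rose too. Apolipoprotein B-100 (LOC100136579) rose by 0.69 ± 0.08 and the apolipoprotein C-II-like gene LOC106605686 by 0.70 ± 0.06, while both apolipoprotein Eb-like genes past the test fell (LOC106577506, -1.41 ± 0.09, and LOC106605689, -0.39 ± 0.06). Complement genes had 32 rises and 3 falls among 47 (median 0.34, 74.5% called). These included 9 of 12 C3 genes and 5 of 6 genes of the membrane attack complex. The C3 alpha chain-like gene LOC106564469 went from 907 to 1355 (median 1156) to 2068 to 2926 (median 2578), without overlap (1.17 ± 0.10, adjusted p = 3.49e-07). Against them, c1qb, which macrophages make, fell (-3.12 ± 0.78). This fall was larger than the last of the 12 greatest (COX2, -2.85) yet lay outside their rule of level and sign. The filter on low values may therefore have set part of its direction. Coagulation genes were split (23 rises, 14 falls of 56, median 0.06, 66.1% called), and library-size scaling gave 19 and 18 with a median of -0.01. Next to the tissue factor-like rise stood falls of coagulation factor X (fa10, -3.86 ± 0.76) and of the plasminogen activator inhibitor 1-like gene LOC106608947 (-2.68 ± 0.50). Despite its size, the fall of fa10 also lay outside that rule, so its direction may likewise have been set in part by the filter. Of the other tissue factor-like copies, LOC106590649 changed by 1.45 ± 0.55 and no longer passed when fish 2, 3, 4 or 6 was left out (1.28 to 1.39), LOC106578489 did not pass the test (0.50 ± 0.43), and LOC106599203 did not pass the filter on low values. The control libraries of LOC106590649 other than fish 5 had a median of 6.09, so it met that filter in part through the 100 µM libraries.

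Cholesterol synthesis and uptake genes, which SREBP2 controls, rose in 21 of 44 cases and fell in 6 (median 0.57). Called genes made up 61.4%, against 45.9% over all genes. The count of rises rested on single fish, with 14 without fish 2, 15 without fish 3, 14 without fish 5, 25 without fish 4 and 26 without fish 6. The median differed between fish. It was 1.07 in fish 1, 0.88 in fish 5 and 0.51 in fish 2 and in fish 3, but 0.09 in fish 4 and -0.04 in fish 6. Mevalonate kinase (mvk) stood at 299 to 853 (median 476) in the controls and 1282 to 4112 (median 1693) at 100 µM. The groups did not overlap (2.06 ± 0.33, adjusted p = 0.00253), and the HMG-CoA synthase gene LOC106571543, an early step, changed by 1.74 ± 0.35. Insulin-induced gene 1 (LOC106578605), the sterol-sensing brake on SREBP, rose (1.31 ± 0.17) and insig2 fell (-1.03 ± 0.12). Phosphomevalonate kinase (pmvk), the step after mvk, fell (-0.95 ± 0.16).

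Fatty acid and triglyceride synthesis genes fell in 20 of 64 cases and rose in 12 (median -0.18). The called share of 50.0% was near the 45.9% over all genes. The acyl-CoA desaturase-like gene LOC106577210, which makes monounsaturated fatty acids, went from 204991 to 275851 (median 252995) in the controls to 49816 to 101781 (median 75825) at 100 µM. All exposed libraries lay below all controls (-1.74 ± 0.09, adjusted p = 1.51e-07). The elongase gene elovl6 (-1.58 ± 0.24) and an acylglycerophosphate acyltransferase gene, LOC106582438 (-1.78 ± 0.17), fell, and the lipin-1-like gene LOC106570052 rose (1.54 ± 0.35). Diacylglycerol acyltransferase 1-like copies went opposite ways (LOC106560908 -1.88 ± 0.50, LOC106570407 1.41 ± 0.34). Fatty acid oxidation and peroxisome genes had 29 falls and 17 rises among 75 (61.3% called against 45.9% over all genes). Among them were the peroxisome assembly genes pex2 (-1.47 ± 0.36) and LOC106564799 (-1.37 ± 0.21) and a carnitine palmitoyltransferase 1 gene of the liver type, LOC106595992 (-1.34 ± 0.27), all lower. A PPARα-like gene, LOC106575923, rose (2.62 ± 0.60).

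In sugar metabolism 29 of 77 tested genes rose and 17 fell (median 0.21, 59.7% called). Over all genes 25.7% rose and 20.2% fell, and the falls in sugar metabolism were close to that share. A facilitated glucose transporter gene (LOC100136540, solute carrier family 2) stood at 514 to 1014 (median 680.2) in the controls and 129.8 to 171.9 (median 151.4) at 100 µM, far apart (-2.26 ± 0.14, adjusted p = 1.61e-08). The muscle-type pyruvate kinase-like gene LOC106587214 (1.94 ± 0.33) and the glucokinase-like gene LOC106585167 (1.77 ± 0.20) rose. Cytochrome P450 genes had 28 rises and 8 falls among 59 (median 0.25, 61.0% called against 45.9% over all genes). The 26 genes of the CYP2 family held 13 of the rises. Library-size scaling gave 21 rises and 11 falls. Both CYP1A genes, targets of the aryl hydrocarbon receptor, fell. LOC100136916 went from 10595 to 18919.7 (median 14732) to 4609 to 9439 (median 7526), without overlap (-1.10 ± 0.08, adjusted p = 1.35e-07), and LOC100136926 changed by -0.81 ± 0.19. Phase II conjugation genes (16 rises, 11 falls of 47, or 7 falls without fish 3) and hepatic transporters (36 and 27 of 112) showed no common direction. Their called shares were 57.4% and 56.2%, against 45.9% over all genes. A glutathione S-transferase Mu 3-like gene, LOC106566372, rose (1.34 ± 0.17) and the microsomal glutathione S-transferase 1-like gene LOC106590880 fell (-1.22 ± 0.10). Nuclear receptors and liver transcription factors had 37 rises and 14 falls among 107 (47.7% called against 45.9% over all genes). A thyroid hormone receptor alpha gene, LOC106583870, rose (2.08 ± 0.31) and the vitamin D receptor gene vdr0 fell (-1.20 ± 0.15).

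Estrogen signalling drives the making of yolk and egg coat precursors in the liver. Vitellogenin (LOC100136426) stood at 276465 to 755319 (median 433181) in the controls and 17893 to 114652 (median 28730.2) at 100 µM. The groups did not overlap and each fish was lower when exposed (-3.58 ± 0.23, adjusted p = 7.34e-05). Fish 3 and 6 had the highest levels in both groups. The estrogen receptor gene esr1 fell from 17202 to 33162 (median 24188) to 8156 to 17169.9 (median 11021), also without overlap (-1.04 ± 0.07, adjusted p = 4.83e-08). Estrogen receptor beta 2 (LOC100846972) rose slightly (0.32 ± 0.07) and estrogen receptor beta (LOC100136443) did not pass the test (-0.44 ± 0.22), except where fish 6 was left out (-0.61). The vitellogenin-like copy LOC106613448, at 74 or less in every library, did not pass either (-1.06 ± 0.77). The zona pellucida protein 4-like gene LOC106573520, an egg coat component, fell by 0.91 on the log2 scale (adjusted p = 9.13e-08). Of the 9 genes of the list, 4 fell and 2 rose (66.7% called against 45.9% over all genes).

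Matrix and integrin genes rose in 52 of 126 cases and fell in 8 (median 0.39). Leaving out single fish gave 43 (fish 3) to 52 (fish 1) rises and 5 (fish 3) to 11 (fish 4) falls. The called share was 47.6%, against 45.9% over all genes (25.7% higher and 20.2% lower). The rises took in 7 of 14 laminin and 14 of 35 collagen genes. The laminin beta-4-like gene LOC106561510 went from 61.5 to 182.8 (median 87.1) to 341 to 684 (median 566), without overlap (2.42 ± 0.21, adjusted p = 6.29e-07), and the matricellular gene cyr61 changed by 2.48 ± 0.38. Integrins were even (6 rises and 5 falls of 23). Cytoskeleton genes had 34 rises and 19 falls among 116, or 30 and 26 under library-size scaling. Their called share of 45.7% was close to the 45.9% over all genes. The actin-binding calponin-2 gene cnn2 stood at 606 to 1074 (median 671) in the controls and 3945 to 5581 (median 4313) at 100 µM, the groups far apart (2.60 ± 0.10, adjusted p = 1.18e-10), and a keratin 18-like gene, LOC106583606, fell (-2.82 ± 0.61).

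Genes of p53 targets, cell death and caspases rose in 37 of 84 cases and fell in 10 (median 0.49). DDIT4-like genes, whose products restrain mTORC1, led them. LOC106612111 stood at 40.2 to 93.9 (median 61.1) in the controls and 259 to 723 (median 407) at 100 µM, without overlap (2.82 ± 0.17, adjusted p = 1.06e-08), and LOC106577395 changed by 2.44 ± 0.50. The bcl-2-modifying factor-like gene LOC106610847, a promoter of apoptosis, rose (2.09 ± 0.29) and the p53 target sesn1 fell (-1.53 ± 0.20). DNA repair genes fell more often than they rose (24 and 11 of 74, median -0.27), though their called share of 47.3% was close to the 45.9% over all genes. The nibrin-like gene LOC106575260, part of the sensor of double-strand breaks, went the other way, from 50.9 to 99.8 (median 86) to 255 to 374 (median 272) (1.80 ± 0.17, adjusted p = 8.69e-07). Cell cycle genes had 19 rises and 15 falls among 88, a called share below that of all genes, with mcm2 at -2.47 ± 0.67 (-1.82 without fish 1). Their more frequent direction turned with the setting, to 12 rises and 15 falls under library-size scaling and 7 and 13 without the fish block. Of 19 histone genes 5 rose and 2 fell, the falls numbering 0 without fish 2 or fish 3 and 1 without fish 6, and library-size scaling gave 4 and 3. With all fish the rises were all of H3.3, the variant that needs no DNA replication (LOC106589474 1.03 ± 0.17).

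The next lower dose gave a second view of the 100 µM libraries. Compared with the 6 libraries at 30 µM of the same fish (AsIII_30uM), 777 of 24883 tested genes differed at 100 µM, 625 of them lower (limma with the fish as a block, 3.12% called, 0.611% higher and 2.51% lower). Without the block, 19 were higher and 255 lower. The count of higher genes also rested on single fish, with 83 without fish 3, 82 without fish 4, 80 without fish 6 and 196 without fish 5. At 30 µM the library of fish 5 stood apart, with 1396 genes at 0 against at most 270 in the other 5, and 194 of them had 10 or more normalized counts in each of the other 11 libraries of the step. Leaving out fish 5 gave 829 genes in all, 633 of them lower, and 683 of these were also called with all 6 fish. Immediate early genes had 27 members lower at 100 µM than at 30 µM among 53 and 1 higher, chaperones 52 and 1, and the stress and unfolded protein response 12 and 0 among 66. The family counts were 11 lower for the small heat shock genes, 14 for HSP70 and 6 for HSP90, with none higher. The single DDIT3 gene, looked up after its value was seen, was lower too (-1.60).

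For bag3 the level was 20356 to 31232 (median 28078) at 30 µM against the 4584 to 7388 (median 5707) at 100 µM given above. The doses did not overlap, and the difference of 100 µM minus 30 µM was -2.17 ± 0.05 (adjusted p = 6.80e-14). The PPP1R15A-like gene LOC106561078 stood at 30296 to 83743 (median 50304) at 30 µM, a difference of -1.93 ± 0.05 (adjusted p = 6.80e-14). The DNAJB1-like gene LOC106564265 differed by -1.69 ± 0.05, the HSP70-like gene LOC106572869 by -2.37 ± 0.11, the ATF-3-like gene LOC106607825 by -1.54 ± 0.07 and the tissue factor-like gene LOC106568893 by -1.17 ± 0.22. The tissue factor-like difference did not pass without fish 2 (-1.14). Each of these genes was higher than in the controls at 100 µM and lower than at 30 µM. The gene with the symbol sqstm1 did not pass the test against the controls, but at 78213 to 116290.0 (median 103304) it was higher at 30 µM than at 100 µM (difference of 100 µM minus 30 µM -1.16 ± 0.08).

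By the same rule of level, sign and product name, the greatest differences of the step were falls. They were those of a TTC25-like gene, LOC106601019 (-3.47 ± 0.13), an HSP30-like gene, LOC106568145 (-2.82 ± 0.30), the DDIT4-like gene ddt4l (-2.71 ± 0.15), an HSPB11-like gene, LOC106563467 (-2.66 ± 0.63), and a claudin-7 gene, LOC106608724 (-2.54 ± 0.14). For LOC106563467 the 100 µM library of fish 1 was at 0. Its change against the controls did not pass the test with all fish (1.28 ± 0.99) and did without fish 1 (2.60). Its difference from 30 µM no longer passed when any of fish 3 to 6 was left out (-2.91 to -2.69). The greatest rises were those of a zinc finger protein 292-like gene, LOC106564756 (1.53 ± 0.31), an ADAMTS-like protease gene, LOC106574336 (1.43 ± 0.20), a SOCS1-like gene, LOC106591927 (1.27 ± 0.20), an ictacalcin-like gene, LOC106606010 (1.21 ± 0.22), and an MBD5-like gene, LOC106566702 (1.10 ± 0.23). The last no longer passed without fish 2 (1.00) or fish 4 (0.98). Other genes that had moved far from the controls differed little between the doses. Vitellogenin differed by -0.03 ± 0.07, COX2 by -0.06 ± 0.06, and psmd5 by -0.18 ± 0.12, none past the test. Among the 13 mitochondrially encoded genes, COX3 (0.24 ± 0.06) and ND1 (0.30 ± 0.08) were higher at 100 µM than at 30 µM, and the other 11 did not pass. Neither held throughout when single fish were left out, COX3 failing the test without fish 1, 3, 4 or 5 (0.20 to 0.24) and ND1 without fish 1, 2, 3, 4 or 5 (0.27 to 0.33).

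**Figure D5:**
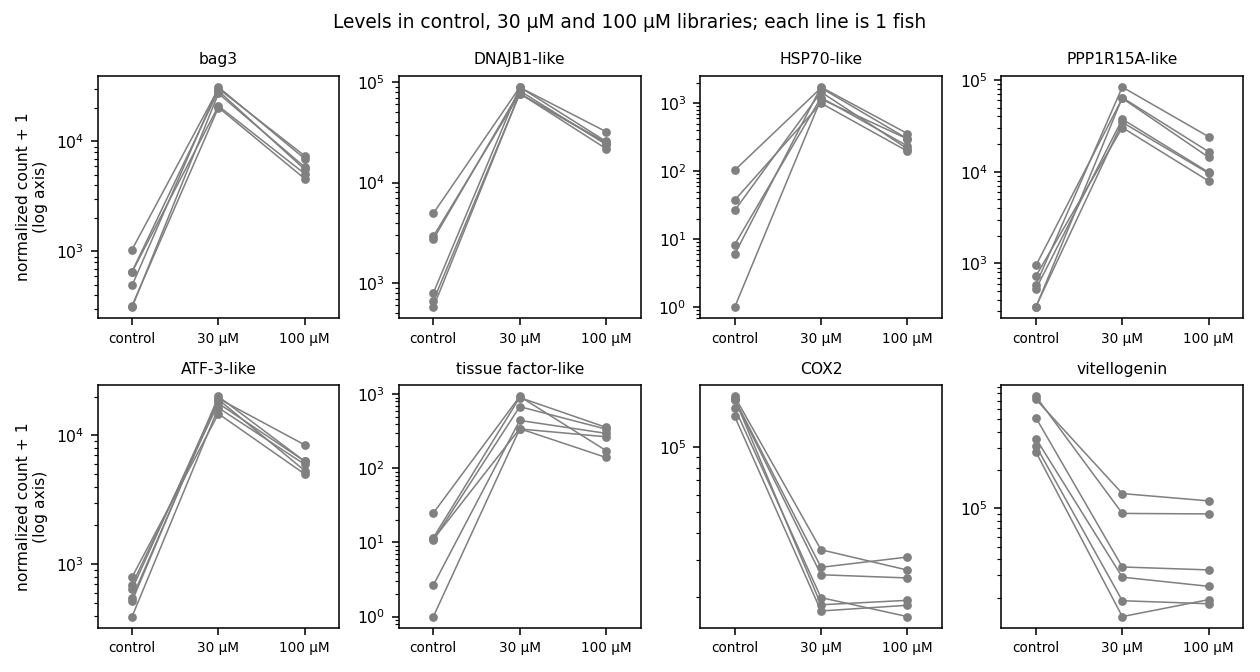
Normalized counts plus 1 on log10 axes of 8 genes in the control, 30 µM and 100 µM libraries of the 6 fish, with a point per library and a line per fish. The stress genes and the tissue factor-like gene stand higher at 30 µM than at 100 µM and lowest in the controls, while COX2 and vitellogenin are low at both doses.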

How the data were processed

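RNA-seq values of 12 libraries were used, with 6 more at 30 µM for the last comparison. The deposited signal of a gene is its read count divided by a size factor per library, as the authors made it. HISAT2, featureCounts, Subread and DESeq2 1.40.2 are named in the submitters' processing notes, without their roles. All values of the 12 libraries gave whole reads (tolerance 0.01 reads), summing to 32.2 to 47.2 M per library, so sampling error is small for all but genes with few reads.

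Values were tested with limma 3.58.1 (trend and robust options, R 4.3.3) on log2(value + 1), with the fish as a block, for genes at 10 or more in at least 6 libraries. A gene low in 1 group could thus be tested through the other alone, and its direction was then set in part by the filter. P-values were adjusted by Benjamini-Hochberg over all genes tested, at 0.05. Same-numbered libraries come from the same animal, and their deviations from the group means correlated (0.187 to 0.355, against at most 0.0655 between different fish). Shares and counts per library were compared by exact sign-flip permutation tests. Low values are pulled towards 0 by the pseudocount of 1. Fitted changes of genes at 0 in some libraries depend on it.

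The 41 gene lists, the members and the comparisons were chosen with earlier results of these data known, and lists are given by counts and medians only. Lists were drawn up from symbols and product names, with 442 matches removed by name. RefSeq symbols were matched for 23011 of the 25830 genes. Named genes came from a fixed rule: the 12 greatest rises and falls with a mean of 100 or more in a group and the same sign in all 6 fish, up to 6 genes from each list, and genes of set functions, with a selection of these printed. Genes whose product is named uncharacterized were left out of the greatest rises and falls. Promoter motifs were not analysed here. Alternatives were edgeR 4.0.16 and DESeq2 1.42.0 on recovered reads, other scaling, pseudocounts (0.5 and 10), filters, weights, all 30 arsenite libraries, no block, and each fish left out. The script was tested on simulated data.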

Additional observations from a re-analysis of the deposited data

Results flagged for a closer look

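A value was taken to stand apart where the gap between the highest or lowest of 6 libraries and its neighbour exceeded Dixon's 95% critical share of the group's range. Chance gives such a gap in about 1 in 20 groups, and all genes named in the results were looked at in both groups. The 100 µM library of fish 1 had 1694 genes at 0 (median of the other 5, 207) and a depth of 42.9 M reads (33.8 M). The 30 µM library of fish 5 had 1396 genes at 0 (116).

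Among control libraries, fish 1 stood high for LOC106560908 (147.7, against a median of 35.4 in the other 5), LOC106563467 (38.4 against 4.57), LOC106570212 (546 against 185.5), LOC106572869 (102.6 against 7.31) and ddt4l (395 against 206). Fish 2 stood high for LOC100136926 (6661 against 3497) and LOC106589466 (23.8 against 6.72). Fish 4 stood high for LOC106591009 (19.1 against 1.97) and LOC106599490 (1207 against 669) and low for LOC106570407 (6.65 against 23.2). Fish 5 stood high for LOC106590649 (19.7 against 6.09) and low for as3mt (166.1 against 229), and fish 6 stood high for LOC106609127 (26.8 against 4.16).

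Among the 100 µM libraries, fish 4 stood high for LOC100136579 (98578 against 65614), LOC106605686 (110037 against 77013) and atf3 (8205 against 5289). Fish 3 stood high for LOC100136581 (5106 against 2294) and cyr61 (100.9 against 52.8). Fish 6 stood high for LOC106570052 (130.7 against 45.9) and LOC106604855 (87.1 against 19.2), fish 2 for LOC106575260 (374 against 269), fish 5 for elovl6 (2532 against 1108) and fish 1 for vdr0 (196 against 134.9).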

How the results depend on the processing

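The count of 11347 genes called between 100 µM and control ran from 9695 without the fish block to 12802 with all 30 arsenite libraries fitted together, and leaving out single fish gave 9881 to 11626. In each of these settings every gene also called with all 12 libraries kept its sign. Calls numbered 11202 with edgeR (5686 higher, 5516 lower) and 11770 with DESeq2 (5954 and 5816). Leaving out the 294 genes at 0 in the 100 µM library of fish 1 alone, a setting chosen after seeing the data, gave 11356. For the step from 30 to 100 µM the block mattered more: 274 genes were called without it against 777 with it, and array weights gave 1103 (284 higher). Among lists, fewer genes rose without the block for redox defence (9), plasma carriers (16), ribosomal proteins (7), cytochromes P450 (18) and sugar metabolism (19). Fewer fell for interferon genes (3), ribosomal proteins (9), phase II genes (7) and the cytoskeleton (11). Without the block, the changes of ATP6, fam20a, LOC100136589, LOC100136926, LOC106560908, LOC106576650 and LOC106606500 against the controls and of LOC106563467, LOC106574336, LOC106606010, LOC106568893, COX3 and ND1 against 30 µM no longer passed.

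The difference in the mitochondrial mRNA share was -2.16 to -2.08 percentage points when single fish were left out, with p = 0.0625, the smallest that the exact test allows for 5 pairs, and -3.61 among values outside the 100 most abundant genes. The difference in genes at 0 turned from 226.5 to -31.8 without fish 1, reached 293.4 without fish 3 and was 213 for values under 1. The log2 change of as3mt, which was not called, ran from -0.12 without fish 4 to 0.052 without fish 1. The log2 difference of vitellogenin LOC100136426 between the doses, also not called, turned to 0.017 under library-size scaling and ran from -0.12 without fish 1 to 0.017 without fish 5. The medians of 7 lists changed sign under library-size scaling, none above 0.0808 in size in the main analysis. The cause of these changes was not tested. Read depth limits genes with few reads, where the libraries at 0 weigh most.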
